A study of Mus musculus with 6 samples.

Results

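E proteins and Id proteins form a small family of helix-loop-helix regulators, and their RNA was followed here in 3 populations of mouse LSK cells. The members were all probe sets annotated to Tcf3 (E2A, older symbol Tcfe2a), Tcf4, Tcf12, Id1, Id2 or Id3 alone. There were 19 such probe sets of 34945 that name 1 gene, and 6 genes of 18193. Tcf3 had 3 of the probe sets, Tcf4 6, Tcf12 5, Id1 1, Id2 3 and Id3 1.

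LSK cells are the bone marrow cells that lack lineage antigens and carry Sca1 and Kit, a fraction that holds the blood stem cells together with early multipotent progenitors. They came from mice aged 10 to 14 weeks and were split by flow sorting on CD34 and Flt3, with 2 Affymetrix arrays each for the CD34+Flt3hi, CD34+Flt3- and CD34-Flt3- fractions. The labels give no treatment, no strain or sex of the mice and no statement that replicate arrays were separate animals or sorts, so a p-value measures the spread among these arrays and that spread may be technical. Its stated question is how gene expression differs among LSK subpopulations of different function.

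E proteins (from Tcf3, Tcf4 and Tcf12) bind DNA as dimers at E boxes, short sites of the form CANNTG, either with each other or with tissue-specific partners such as Tal1. Id proteins have the dimerisation helices but no DNA-binding basic region, so an E protein held by an Id protein is kept off DNA. In blood formation E proteins are known for switching on early lymphoid genes, Tcf4 for B cell and plasmacytoid dendritic cell development, Id2 for innate lymphoid and dendritic cells, and Id1 as a gene induced by bone morphogenetic protein (BMP) signals.

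Promoter sequence is shown for 2 genes in which E boxes can be set beside the measurements, Id2 as a family member and Dntt as a gene activated by E proteins. Each is the 250 bases upstream of the RefSeq start, build GRCm38.p6, read 5′ to 3′ on the gene's strand. Id2 is chr12:25096093-25096342 on the minus strand, and Dntt is chr19:41029025-41029274 on the plus strand. Capitals mark each match to CANNTG or to GGCGCC, a GC-rich motif of the kind bound by BMP-responsive Smads.
Id2: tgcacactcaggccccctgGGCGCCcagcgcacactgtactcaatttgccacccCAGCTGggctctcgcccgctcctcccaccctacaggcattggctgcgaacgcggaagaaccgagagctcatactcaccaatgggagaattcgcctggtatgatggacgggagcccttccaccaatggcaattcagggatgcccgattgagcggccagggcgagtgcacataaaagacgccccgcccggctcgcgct
Dntt: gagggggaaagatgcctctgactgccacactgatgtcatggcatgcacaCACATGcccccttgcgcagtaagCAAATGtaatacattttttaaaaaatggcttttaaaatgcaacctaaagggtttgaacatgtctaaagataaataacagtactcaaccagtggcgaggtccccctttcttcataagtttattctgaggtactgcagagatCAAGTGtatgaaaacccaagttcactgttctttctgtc

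The Id2 window held 1 CANNTG match, of the CAGCTG form, and 1 GGCGCC match, while the Dntt window held 3 CANNTG matches and none of the other forms. The windows of Tcf3 (1 match) and of Tcf12 (1, 1 and 0 matches in its 3 windows) also held CANNTG, and those of Id3 and Notch1 had 0 matches. All motifs read the same on both strands, and the CAGCTG form is counted among the E boxes. Of all 32851 promoter windows of this length, 66.2% held CANNTG, while 13.0% held CAGCTG and 9.59% held GGCGCC. Id1 and Tcf4 are named only.

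Before the family, the arrays themselves were compared. Values are log2 intensities, each gene is read from its brightest probe set, and background was a log2 of 4.50, taken as the 90th percentile over 27 unspiked bacterial controls. The median linear intensity ran from 29.7 to 31.4 over the 6 arrays. Across genes the 2 arrays of a group correlated with an r of 0.990 (CD34+Flt3hi), 0.981 (CD34+Flt3-) and 0.969 (CD34-Flt3-), and they differed over 2-fold in 112, 476 and 1352 genes. CD34-Flt3- replicate 1 lay slightly nearer to CD34+Flt3- replicate 1 (r of 0.971) than to its own replicate. Each sample title ends in one of 3 codes that the labels do not explain. They are written A (replicate 2 of every group), B (replicate 1 of both CD34+ groups) and C (replicate 1 of CD34-Flt3- cells alone). Differences within a code rest on 1 array a group. Cd34 and Flt3 RNA rose from CD34-Flt3- to CD34+Flt3hi cells (log2 difference 2.23 and 3.48, limma adjusted p = 0.000869 and 0.00215), in the direction of the sort. Of the mature cell markers, 2 of 9 B lineage, 2 of 12 T and NK, 1 of 9 dendritic, 3 of 11 neutrophil and monocyte, 1 of 9 endothelial, 0 of 7 erythroid and 0 of 6 megakaryocyte genes were below background on all 6 arrays.

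Tcf4 was the family member that passed the test. It was higher in CD34+Flt3hi cells than in CD34-Flt3- cells, and the rise lay between the CD34+Flt3- and CD34+Flt3hi groups, where it did not pass by itself. Mean Id1 and Id2 RNA was highest in CD34-Flt3- cells, but neither difference passed and the 2 arrays of that group disagreed widely. Tcf3 and Tcf12 were bright in all 3 groups, and no difference in them passed.

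**Figure D1:**
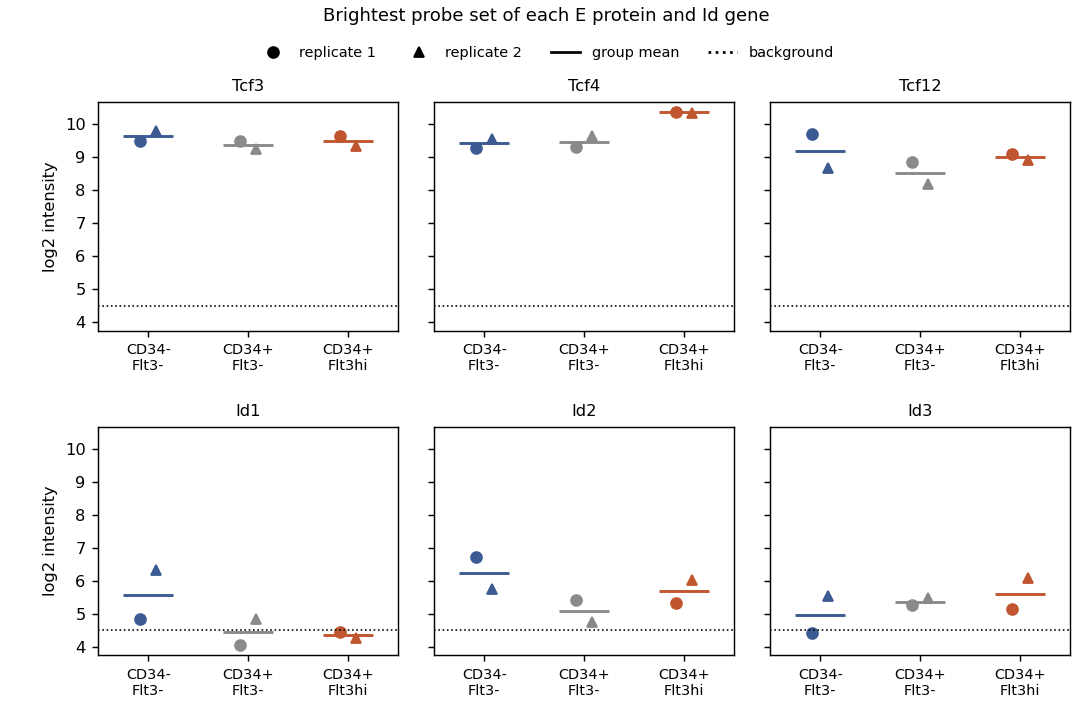
Log2 intensity of the brightest probe set of each E protein and Id gene (y axis) in the 3 sorted groups (x axis). Circles are replicate 1, triangles replicate 2, bars the mean of the 2 arrays and the dotted line the background of 4.50. Tcf4 reads 10.35 or more on both CD34+Flt3hi arrays and at most 9.64 on the other 4. Id1, Id2 and Id3 are dim, with group means from 4.36 to 6.24, and their CD34-Flt3- arrays lie far apart.

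The groups were compared in 3 ways by limma over all 18193 genes, with an adjusted p (Benjamini-Hochberg) under 0.05 as the threshold. The first step is CD34+Flt3- minus CD34-Flt3-, the next step CD34+Flt3hi minus CD34+Flt3-, and the end-to-end comparison CD34+Flt3hi minus CD34-Flt3-. In the first step 0 of 6 members passed, against 2.10% of all genes (0.770% higher, 1.33% lower). In the next step 0 of 6 passed, against 0.610% of all genes (0.385% higher, 0.225% lower). End to end 1 of 6 passed, against 6.11% of all genes (2.62% higher, 3.50% lower). At an unadjusted p under 0.05 there were 2, 1 and 2 of the 6 members, against 16.9%, 6.76% and 18.3% of all genes. Groups were separated, with no overlap between their arrays, in 2 of 6 members in each comparison, against 44.2%, 40.4% and 47.9% of all genes, which is near the background. These were Id1 and Id2 in the first step, Tcf4 and Tcf12 in the next, and Tcf4 and Id1 end to end. The median log2 difference of the 6 genes was -0.46, 0.37 and -0.16 in the 3 comparisons, and that of all genes was -0.10, 0.03 and -0.07.

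Tcf4 (Entrez gene 21413) encodes the E protein E2-2. Its brightest probe set, 1416724_x_at, is of the x type, which can share sequence with other transcripts. It read 9.29 and 9.55 in CD34-Flt3- cells, 9.31 and 9.64 in CD34+Flt3- cells and 10.36 and 10.35 in CD34+Flt3hi cells. Both CD34+Flt3hi arrays were above all 4 others, and the other 2 groups overlapped. The means were 9.42 ± 0.18 (SD, n = 2), 9.47 ± 0.24 and 10.36 ± 0.0064 in the order of the sort. End to end Tcf4 rose 1.92-fold (log2 0.94 ± 0.22, SE, limma adjusted p = 0.0347; 0.80 within code A). In the first step the log2 difference was 0.06 (95% confidence interval -0.44 to 0.55, adjusted p = 0.932), and in the next step it was 0.88 (interval 0.39 to 1.38, adjusted p = 0.187; 0.71 within code A and 1.05 within code B). With the title code as a fixed replicate block, the next step passed with the same difference (adjusted p = 0.00538). That fit has fewer residual degrees of freedom than the main fit, and 670 genes passed this step in it, against 111. With the code as a random block the next step of Tcf4 did not pass (adjusted p = 0.12).

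All 6 probe sets of Tcf4 had their highest group mean in CD34+Flt3hi cells, while the order of the other groups varied. They sample the same RNA and are not replicates of it. In a fit of all 34945 single-gene probe sets, 5 of the 6 Tcf4 probe sets passed end to end, against 4.13% of all probe sets, with log2 differences from 0.94 to 1.76, the smallest of them in the brightest probe set. Probe set 1434148_at read 7.53 and 7.57 in CD34-Flt3- cells, 7.69 and 7.20 in CD34+Flt3- cells and 8.83 and 9.05 in CD34+Flt3hi cells. Probe set 1424089_a_at read 8.17 and 8.42, then 8.17 and 8.63, then 9.74 and 9.52. Probe set 1416723_at read 9.07 and 9.01, then 8.95 and 8.83, then 10.14 and 9.86. In each of these the CD34+Flt3hi arrays stood apart while the CD34-Flt3- and CD34+Flt3- arrays lay close together. Probe set 1434149_at read 6.21 and 5.14, then 6.12 and 6.40, then 7.45 and 7.41, and its CD34-Flt3- arrays differed by more than those of any other Tcf4 probe set. The sixth, 1416725_at, was near background in every group (group means 4.21, 4.14 and 4.50) and did not pass (adjusted p = 0.706).

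In the next step all 6 Tcf4 probe sets were higher in CD34+Flt3hi cells, by 0.36 to 1.50 on the log2 scale, and in 5 of them the arrays did not overlap (39.0% of all probe sets). Of these, 0 passed, the smallest adjusted p being 0.0666 for 1434148_at, against 0.343% of all probe sets. End to end the arrays also did not overlap in 5 of 6 (45.5% of all probe sets). In the first step 3 of 6 were higher and 1 did not overlap (42.3% of all probe sets), and 0 of the 19 family probe sets passed, against 1.12%.

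**Figure D2:**
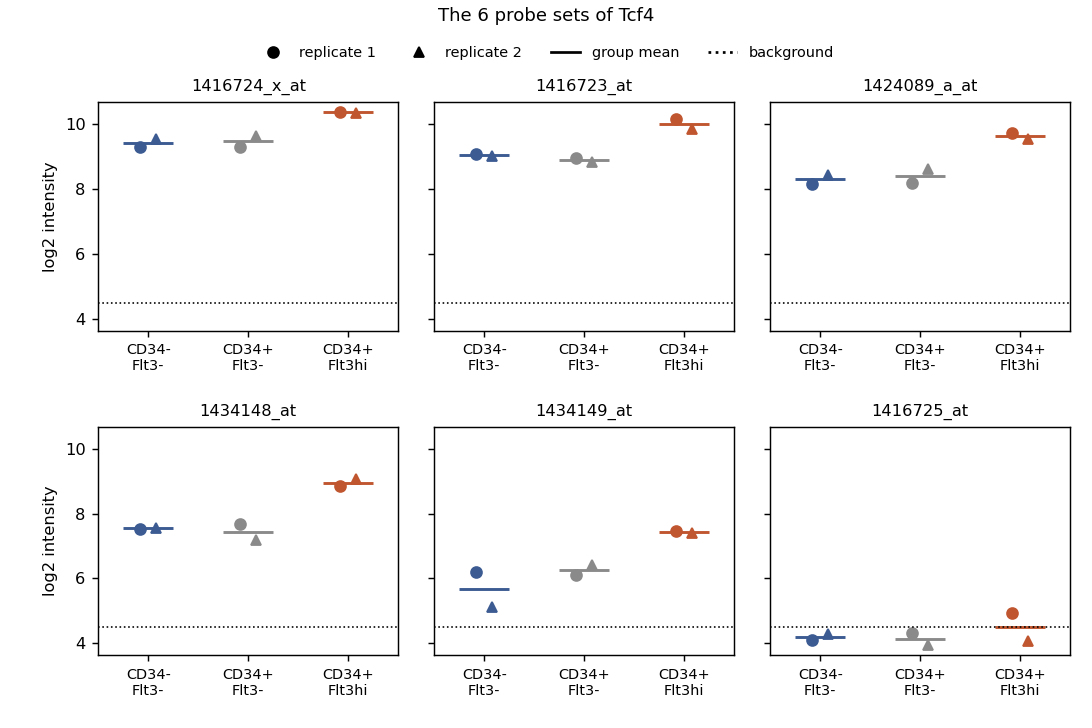
Log2 intensity of each of the 6 Tcf4 probe sets (y axis) in the 3 sorted groups (x axis), with circles for replicate 1, triangles for replicate 2, bars for the mean of 2 arrays and a dotted line at the background of 4.50. In 5 panels both CD34+Flt3hi arrays lie above the other 4, and 1416725_at stays near background.

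The end-to-end call of Tcf4 had an adjusted p of 0.0504 without CD34-Flt3- replicate 1 (log2 0.81), 0.332 and 0.297 without CD34+Flt3hi replicates 1 and 2 (log2 0.93 and 0.94), and 0.0501 without an intensity trend. The next step passed without CD34-Flt3- replicate 1 (adjusted p = 0.0452), with array weights (0.0394) and with only the 4 arrays compared (0.0433).

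Markers of the cells known for Tcf4 were set beside it. Of 9 measured plasmacytoid and classical dendritic cell genes, 2 rose end to end (Ccr9 and the sort antigen Flt3). The median log2 difference of the list was -0.11, 0.08 and 0.20 in the 3 comparisons, against -0.10, 0.03 and -0.07 for all genes. Its summed linear intensity was 657 to 1001 in CD34-Flt3-, 870 to 1293 in CD34+Flt3- and 3967 to 4621 in CD34+Flt3hi cells. That sum includes Flt3, whose level follows from the sort itself. Siglech, which marks plasmacytoid dendritic cells, read 4.89 to 5.86 over all arrays with its highest value in CD34-Flt3- cells, and Xcr1 was below background throughout. Of 9 measured B lineage genes 0 passed, and Ms4a1 and Fcer2a were below background on all arrays. Their sum was 406 to 3459 in CD34-Flt3-, 376 to 480 in CD34+Flt3- and 3079 to 3202 in CD34+Flt3hi cells. Ighm, the immunoglobulin heavy chain gene, made up most of the high sums. It read a log2 of 11.59 on CD34-Flt3- replicate 1, and 11.43 and 11.50 on the CD34+Flt3hi arrays. Tcf4 read 9.29 on CD34-Flt3- replicate 1, and 10.36 and 10.35 on the CD34+Flt3hi arrays. In bulk samples a larger share of cells of one type and more RNA per cell cannot be told apart, and the part of other cell types in the Tcf4 values was not tested.

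Tcf3 (Entrez gene 21423) encodes the E2A proteins E12 and E47, needed for the B lineage. It read 9.49 and 9.79 in CD34-Flt3- cells, 9.51 and 9.26 in CD34+Flt3- cells and 9.64 and 9.34 in CD34+Flt3hi cells. All 3 groups overlapped, and the 2 arrays of a group differed by as much as the group means. The log2 differences were -0.26 (95% confidence interval -0.78 to 0.26), 0.11 (-0.41 to 0.63) and -0.15 (-0.67 to 0.37), with limma adjusted p = 0.621, 0.990 and 0.806. The sign of the next step turned when quantile normalization was repeated (-0.060). The probe set 1427764_a_at had its highest values in CD34-Flt3- cells (7.80 and 7.61, against 6.91 to 7.41 elsewhere), also without passing (adjusted p = 0.404 and 0.622 against the other groups). Probe set 1452542_x_at was dim, at 4.89 to 5.57.

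Tcf12 (Entrez gene 21406) encodes HEB, the E protein best known from T cell development. It read 9.69 and 8.67 in CD34-Flt3- cells, 8.84 and 8.20 in CD34+Flt3- cells and 9.10 and 8.91 in CD34+Flt3hi cells. CD34-Flt3- replicate 1 was the brightest array and spread that group over a full log2 unit. The differences were -0.66 (95% confidence interval -1.45 to 0.13), 0.48 (-0.31 to 1.28) and -0.17 (-0.97 to 0.62), with limma adjusted p = 0.381, 0.921 and 0.858. The probe sets 1421908_a_at and 1439209_at gave end-to-end differences of opposite sign, -0.33 and 0.75, neither past the threshold (adjusted p = 0.759 and 0.308). Probe set 1446294_at was dim (group means 5.37, 5.16 and 5.55) and had an end-to-end difference of 0.18 (adjusted p = 0.863), and 1439619_at was below background on all 6 arrays. In the next step the 4 Tcf12 probe sets above background in mean had differences of 0.40 to 0.51. That of 1439619_at was -0.26, and 0 of the 5 passed. Without CD34-Flt3- replicate 2 the first step of Tcf12 was -1.17 and passed (adjusted p = 0.048), and without replicate 1 it was -0.15.

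**Figure D3:**
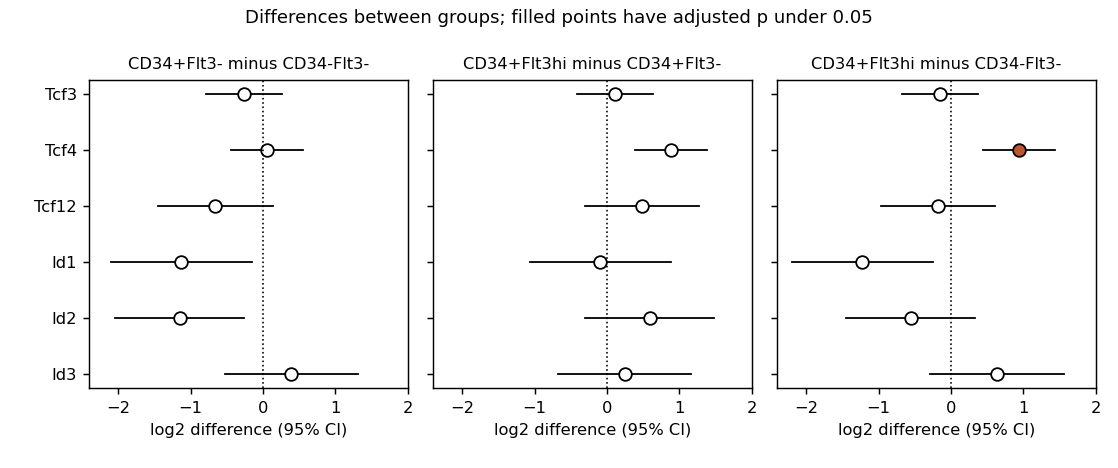
Log2 difference (x axis) of the brightest probe set of each member gene (y axis) in the 3 comparisons, with 95% confidence intervals from the limma fit of 6 arrays. The filled point, Tcf4 end to end, has an adjusted p of 0.0347, and the open points did not pass.

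The Id genes gave dim signals, with group means from 4.36 to 6.24. Id1 (Entrez gene 15901) encodes an inhibitor of E proteins and had 1 probe set. It read 4.85 and 6.32 in CD34-Flt3- cells, 4.06 and 4.85 in CD34+Flt3- cells and 4.44 and 4.28 in CD34+Flt3hi cells. CD34-Flt3- replicate 2 stood far above all others, and replicate 1 barely exceeded the brighter CD34+Flt3- array. The means of both CD34+ groups (4.46 and 4.36) were below background, so the folds are bounds: at least 1.88-fold higher in CD34-Flt3- than in CD34+Flt3- cells, and at least 2.12-fold higher than in CD34+Flt3hi cells. The fitted log2 differences were -1.13 (95% confidence interval -2.10 to -0.16, limma adjusted p = 0.226) and -1.23 (-2.20 to -0.25, adjusted p = 0.158), and within code A -1.47 and -2.04. Without CD34-Flt3- replicate 1 they were -1.86 and -1.96 and passed (adjusted p = 0.0112 and 0.00368), and without its replicate 2 they were -0.40 and -0.50. Over all settings the adjusted p ran from 0.000581 to 0.548 in the first step and from 0.000129 to 0.524 end to end. A fixed replicate block of title codes, in which CD34-Flt3- cells rest on replicate 2 alone, gave -1.71 and -1.80. The lowest adjusted p of each range came from this block, which has fewer residual degrees of freedom than the main fit. With the code as a random block they were -1.16 and -1.25 and did not pass (adjusted p = 0.178 and 0.118).

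Id1 is bright in endothelial cells, so their markers were set beside it. Of 9 measured endothelial genes, 1 fell in the first step, 1 in the next and 3 end to end. The 3 were Kdr, Tek and Tie1, which encode receptor kinases. Medians of the list were -0.73, -0.15 and -0.82 on the log2 scale, against -0.10, 0.03 and -0.07 for all genes. The summed linear intensity of the list was 1271 to 1384 in CD34-Flt3-, 852 to 914 in CD34+Flt3- and 1037 to 1275 in CD34+Flt3hi cells, and Cdh5, the endothelial cadherin gene, was below background on all arrays. The part of these cells in the Id1 values was not tested.

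Id2 (Entrez gene 15902) read 6.72 and 5.75 in CD34-Flt3- cells, 5.43 and 4.74 in CD34+Flt3- cells and 5.32 and 6.03 in CD34+Flt3hi cells. Here CD34-Flt3- replicate 1 was the brighter array, the reverse of Id1, and the CD34+Flt3hi arrays overlapped with both other groups. Id2 was 2.22-fold lower in CD34+Flt3- than in CD34-Flt3- cells (log2 -1.15, 95% confidence interval -2.04 to -0.26), which did not pass (limma adjusted p = 0.182; -1.01 within code A). The next step was 0.59 (interval -0.30 to 1.48, adjusted p = 0.909), with 1.29 within code A and -0.11 within code B, and the end-to-end difference was -0.56 (interval -1.45 to 0.33, adjusted p = 0.529). The probe set 1422537_a_at gave nearly equal group means (5.04, 4.97 and 5.03), and 1453596_at lay below background on all arrays (3.76 to 4.15). Without CD34-Flt3- replicate 2 the first step was -1.63 and passed (adjusted p = 0.0372), and without replicate 1 it was -0.67.

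Natural killer cells and other innate lymphocytes hold much Id2 RNA. Of 12 measured T and NK lineage genes, 1 rose in the first step and 1 end to end, and Cd3g and Tbx21 were below background on all arrays. The list's summed linear intensity was 530 to 752 in CD34-Flt3-, 1471 to 1478 in CD34+Flt3- and 1087 to 1096 in CD34+Flt3hi cells. Its median log2 difference was -0.03, -0.04 and -0.17 in the 3 comparisons, against -0.10, 0.03 and -0.07 for all genes. The part of these cells in the Id2 values was not tested.

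Id3 (Entrez gene 15903), an inhibitor induced by antigen receptor signals in lymphocytes, read 4.41 and 5.55 in CD34-Flt3- cells, 5.26 and 5.48 in CD34+Flt3- cells and 5.16 and 6.08 in CD34+Flt3hi cells. The mean was higher at each step, but every pair of groups overlapped. The log2 differences were 0.39 (95% confidence interval -0.53 to 1.31), 0.25 (-0.67 to 1.17) and 0.64 (-0.28 to 1.56), with limma adjusted p = 0.684, 0.986 and 0.477.

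Genes of cell division also differed between the groups. Of 19 measured genes of the G2 and M phases, 9 rose in the first step, 0 in the next and 18 end to end. Their summed linear intensity was 6146 and 1978 on CD34-Flt3- replicates 1 and 2, 14812 to 15265 in CD34+Flt3- and 18115 to 18595 in CD34+Flt3hi cells. The array with the lowest sum was the one with the highest Id1, and the part of cell division in the values of the family was not tested.

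By Pearson's r over the 6 arrays, among 1703 named genes whose group means spanned at least 1 log2 unit, the patterns most like Id1 were those of Thap3 (r of 0.971), Grasp (0.965) and Frat1 (0.962), which encodes an inhibitor of the kinase Gsk3. Those most like Id2 were Socs5, a cytokine signalling inhibitor gene (0.963), Maco1 (0.960) and Pramel12 (0.954). All values share the same 6 arrays. Thap3 read 8.62 on CD34-Flt3- replicate 2 against 6.95 to 7.53 on the others, which is the shape of Id1. Socs5 read 8.13 and 7.44 in CD34-Flt3- cells and was lowest, at 5.89, on CD34+Flt3- replicate 2. The group means of the brightest probe sets of Tcf3, Tcf4, Tcf12 and Id3 spanned less than 1 log2 unit.

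Genes of the wider network were read from 6 lists. Of 9 measured tissue-specific helix-loop-helix partners of E proteins, 1 fell end to end and 0 passed in either step (median log2 difference -0.13, 0.02 and -0.02 in the 3 comparisons). This was Tal1 (SCL), the partner with which E proteins act in stem cells and red cell precursors. It read 9.93 and 9.05 in CD34-Flt3- cells, 8.29 and 8.24 in CD34+Flt3- cells and 6.75 and 7.55 in CD34+Flt3hi cells, falling 5.07-fold (log2 -2.34 ± 0.42, SE, limma adjusted p = 0.00454). Without CD34+Flt3hi replicate 1 the difference was -1.94 (adjusted p = 0.065). Lyl1, its close relative, was bright on all arrays (9.46 to 9.96), with an end-to-end difference of -0.23 (adjusted p = 0.658).

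Of 14 complex partners and cofactors, 2 fell in the first step, 1 in the next and 5 end to end, and 0 rose (medians -0.39, 0.05 and -0.44). Gata2, a stem and progenitor cell GATA factor that sits in Tal1 complexes, read 11.60 and 11.78 in CD34-Flt3-, 11.55 and 10.73 in CD34+Flt3- and 8.09 and 8.29 in CD34+Flt3hi cells. It fell by 2.95 on the log2 scale in the next step (adjusted p = 0.00166) and by 3.50 end to end (adjusted p = 0.000161), and its other probe set by 1.84 and 1.96. Gata3 fell in the first step (log2 -1.61, adjusted p = 0.0365) and end to end (-2.08, adjusted p = 0.0045). Its first step did not pass with array weights, probe sets tested singly or only the 4 arrays compared (limma adjusted p = 0.0548, 0.0512 and 0.0984). Runx1t1, a corepressor gene, fell in the first step and end to end to below background, at least 2.25-fold in both (adjusted p = 0.0367 and 0.011). Its other 5 probe sets were below background in mean, with differences of -1.57 to -0.11 and -1.71 to -0.26. With the mean of all probe sets it fell by 0.75 and 0.86 (limma adjusted p = 0.104 and 0.0342). The first step also did not pass without an intensity trend, with probe sets tested singly or with only the 4 arrays compared (0.0593, 0.051 and 0.084). Gata1, the erythroid GATA factor, fell at least 3.97-fold end to end (adjusted p = 0.0242), and Ldb1, the adaptor of these complexes, by 0.92 on the log2 scale (adjusted p = 0.0457). Ldb1 did not pass with median centring, probe sets tested singly or only the 4 arrays compared (limma adjusted p = 0.0618, 0.062 and 0.0635). Lmo2, the bridging factor between Tal1 and Ldb1, was bright on every array (12.77 to 13.32), and its end-to-end difference was -0.23 (adjusted p = 0.522).

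The first-step calls of Gata3 and Runx1t1 were lost without any 1 of the CD34+Flt3- and CD34+Flt3hi arrays (adjusted p = 0.055 to 0.351 and 0.078 to 0.202). End to end, Gata3 had an adjusted p of 0.064 without CD34+Flt3hi replicate 2, Runx1t1 0.068 and 0.104, and Gata1 0.179 and 0.126 without CD34+Flt3hi replicates 1 and 2. Ldb1 had 0.062 to 0.388 without any 1 array other than CD34-Flt3- replicate 2, and 0.09 when the title codes entered as a fixed replicate block.

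Markers of the megakaryocyte and red cell lineages, in which Tal1, Gata1 and Gata2 are also active, were set beside these genes. Of 6 measured megakaryocyte and platelet genes, 1 fell in the first step, 2 in the next and 5 end to end (medians -0.10, -2.42 and -2.33), among them Vwf (von Willebrand factor), Itga2b and Pf4. The summed linear intensity of the list was 3272 to 3435 in CD34-Flt3-, 969 to 2189 in CD34+Flt3- and 214 to 268 in CD34+Flt3hi cells. Of 7 measured erythroid genes, 1 fell in the first step, 0 in the next and 2 end to end (Klf1 and Ermap), with medians of -0.55, 0.02 and -0.26. Their sum was 3362 on CD34-Flt3- replicate 1 and 977 on its replicate 2, 503 to 798 in CD34+Flt3- and 703 to 727 in CD34+Flt3hi cells. The part of these lineages in the falls of Tal1 and its partners was not tested.

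Of 15 E protein target genes of early lymphoid cells, 0 passed in the first step, 2 rose in the next, and 3 rose and 1 fell end to end (medians -0.46, 0.70 and 0.38). Dntt, which encodes terminal transferase, read 7.26 and 7.20 in CD34-Flt3-, 6.44 and 7.11 in CD34+Flt3- and 12.59 and 12.61 in CD34+Flt3hi cells. Its CD34+Flt3hi arrays stood over 5 log2 units above the rest, a 41.2-fold rise end to end (log2 5.37, adjusted p = 5e-05), and its other 2 probe sets rose by 4.51 and 4.52. Notch1, the receptor that directs T lineage choice, read 8.27 and 8.06, then 7.22 and 7.71, then 9.95 and 10.15, a rise of 2.59 in the next step and 1.88 end to end (adjusted p = 0.00256 and 0.00288; 0.065 and 0.064 without CD34+Flt3hi replicate 2). Ccr9, a thymus homing receptor gene, rose at least 2.37-fold from below background (adjusted p = 0.0375), with 4.69 and 6.79 on the CD34+Flt3hi arrays. Its other 4 probe sets were below background in mean, its sign turned when probe sets of the x and s types were dropped (-0.17, adjusted p = 0.822), and the call was lost without any 1 of 4 arrays (CD34-Flt3- replicate 2, either CD34+Flt3- array or CD34+Flt3hi replicate 2, adjusted p = 0.063 to 0.09).

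Foxo1, a forkhead factor gene of the B lineage, went the other way, falling by 1.15 on the log2 scale (adjusted p = 0.0378). Its 3 other probe sets ran from -1.02 to 0.10, and the call was lost without any 1 array other than CD34-Flt3- replicate 2 (adjusted p = 0.058 to 0.417). The later B lineage targets Ebf1 and Pax5 were dim, at 4.04 to 5.25 and 3.99 to 4.89, with end-to-end differences of -0.59 and -0.31 (adjusted p = 0.402 and 0.592).

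**Figure D4:**
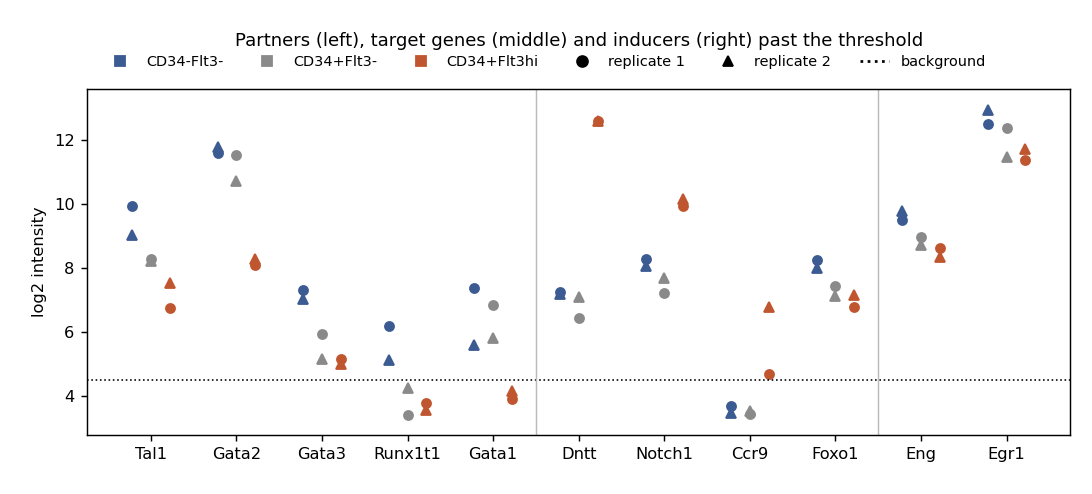
Log2 intensity (y axis) on each array of 11 network genes past the threshold (x axis): partners and cofactors on the left, E protein target genes in the middle and inducers of Id genes on the right. Colours are the 3 groups, circles replicate 1, triangles replicate 2 and the dotted line the background of 4.50. Gata2 is near 8 and Dntt near 12.6 only on the CD34+Flt3hi arrays.

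Of 15 genes of the BMP, TGF-beta and Egr routes that induce Id genes, 0 passed in either step and 2 fell end to end (medians -0.67, -0.05 and -0.24). Eng, the TGF-beta co-receptor endoglin, read 9.52 and 9.80 in CD34-Flt3-, 8.98 and 8.72 in CD34+Flt3- and 8.63 and 8.36 in CD34+Flt3hi cells (log2 -1.16, adjusted p = 0.0205; 0.142 and 0.266 without CD34+Flt3hi replicates 1 and 2). Egr1, an immediate early transcription factor, read 12.51 and 12.93, then 12.37 and 11.47, then 11.40 and 11.74 (log2 -1.16, adjusted p = 0.0351; 0.081 without CD34-Flt3- replicate 2, and 0.306 and 0.124 without CD34+Flt3hi replicates 1 and 2). In both genes the CD34-Flt3- arrays were the brightest, as for mean Id1 and Id2. The receptor gene Bmpr1a and the BMP signal carriers Smad1 and Smad5 gave end-to-end differences of -0.59, 0.0043 and -0.20, none past the threshold (adjusted p = 0.362, 0.996 and 0.80).

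Of 8 genes for the turnover of Id and E proteins 0 passed in any comparison (medians 0.42, 0.14 and 0.31). Usp1, which removes ubiquitin from Id proteins, had an end-to-end difference of 1.20 (limma adjusted p = 0.108), and Skp2 one of 0.84 (adjusted p = 0.226). Of 6 other helix-loop-helix repressors 0 passed as well (medians -0.45, 0.02 and -0.57). Hes1, a Notch target gene, read 6.64 in replicate 1 and 10.19 in replicate 2 of CD34-Flt3- cells, against 5.11 to 7.32 on the other arrays, and Hey1 read 5.31 and 6.89 against 4.95 to 5.53. Their brightest array was CD34-Flt3- replicate 2, the same as for Id1. Id4, the fourth Id gene, was below background on all arrays (3.52 to 4.14).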

How the data were processed

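RNA was purified from cells sorted into lysis buffer, amplified in 2 rounds and hybridised as biotin-labelled RNA, per the labels' protocols. The deposited values are taken as linear RMA (robust multi-array average) intensities: the submitters' processing notes name RMA without a version, and the scale is inferred from the values. Their log2 was used here. The 45101 probe sets comprised 64 controls, 34945 with 1 gene symbol, 932 with more than 1 and 9160 unnamed. Gene identifiers gave current symbols (99.1% matched), and RefSeq gave the promoters. The model, limma 3.58.1 under R 4.3.3, held 1 mean per group over 6 arrays and was moderated by eBayes along an intensity trend, at 3 residual degrees of freedom. P-values are two-sided. With 2 arrays a group, exact permutation allows no p below 0.333. A value below background was set to it for folds given as "at least". The pipeline was tested on simulated data.

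The members and lists were chosen with earlier results of these data known. All members and their probe sets are described, with up to 4 genes of each list past the threshold by smallest adjusted p (or 2 as values), and the 3 genes most like each member whose group means span at least 1 log2 unit. Ldb1, Lyl1, Lmo2, Bmpr1a, Smad1, Smad5, Ebf1, Pax5 and Id4 were added after their values were seen. Plots used Python 3.11.15 and matplotlib 3.10.9. The number of arrays limits the precision, and array data have no depth.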

Additional observations from a re-analysis of the deposited data

How the results depend on the processing

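Between 0 and 2 member genes passed in any comparison under all 19 alternatives. In the first step the count moved from 0 to 1 with the title code as a fixed replicate block, and from 0 to between 0 and 2 when 1 array was left out. In the next step it moved from 0 to 1 with the replicate block, with array weights and with only the 4 arrays compared, and to between 0 and 1 with 1 array left out. End to end it moved from 1 to 2 with the replicate block and to 0 without an intensity trend, and lay between 0 and 1 with 1 array left out. Tcf4 passed end to end in 15 of 19 alternatives, and its difference there ran from 0.81 to 1.11. These 15 include the main fit read at an adjusted p under 0.10, which Tcf4 could not fail. They also include the fits without either CD34+Flt3- array, which leave its difference unchanged. The call was lost without either CD34+Flt3hi array and without CD34-Flt3- replicate 1, where Id1 passed in place of Tcf4. When an array is left out, the remaining one of its group is assumed to vary like the other groups. The codes share no stated meaning, so the block is not a known pairing; its consensus correlation as a random block was 0.11.

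Signs turned in 12 of 333 recomputed differences of single members, all of them far from the threshold (smallest adjusted p 0.544). Tcf12 end to end was 0.13 with the replicate block, 0.031 with the mean of all probe sets and between -0.69 and 0.34 with 1 array left out. Tcf3 in the next step was -0.060 with quantile normalization repeated and between -0.042 and 0.26 with 1 array left out, including -0.014 without CD34+Flt3- replicate 2. Tcf4 in the first step was -0.15 without x and s probe sets and between -0.11 and 0.22 with 1 array left out, including -0.075 without CD34-Flt3- replicate 1. With 1 array left out Id3 lay between -0.18 and 0.96 in the first step and between -0.21 and 0.71 in the next, and Id1 between -0.49 and 0.30 in the next. List counts moved by over 1.5 times, or from or to 0, in 58 of 684 recomputations, 31 upward and 27 downward. Most list counts of the main fit were 0 and could not move downward. Causes were not tested. Without CD34+Flt3- replicate 2, 0 genes of any kind passed in the first step (limma; 1569 at an unadjusted p under 0.05), and without its replicate 1, 83. A filter at the median brightness of all genes removed the 3 Id genes from the fit. Dim signal limits what the Id probe sets can show.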
